A study of Mus musculus with 35 samples.

Results

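Of the 35 mice of the series, the 25 that had been given dextran sulfate sodium (DSS) were divided into classes chosen by a measured value, the calprotectin signal of their own colon. The calprotectin level of a mouse was the mean log2 signal of S100a8 and S100a9, the genes of the 2 calprotectin subunits. The 13 mice at 8.5 or more were the high class, and the 12 mice under 8.5 were the low class. S100a8 and S100a9 set the classes, so their values are a description and were left out of every test. The classes were read from the same arrays as all other genes. A difference between them is therefore an association among genes on these arrays, not the effect of a treatment.

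Each array held colon RNA of 1 numbered C57BL/6N mouse, collected at day 12, and all 25 mice had drunk 3% DSS for 5 days and then plain water. They belonged to 5 groups of 5 mice. Conventional mice were wild-type or carried a Reg3a transgene. Axenic mice, raised without microbes, had received intestinal flora from transgenic donors or from wild-type donors 3 weeks ahead of DSS, or were controls whose label places DSS before a microbial transfer. The labels leave unclear if these controls ever held flora. For conventional mice a label field also mentions a transfer, but groups were taken from titles and the design text. Neither the species and promoter of the transgene nor the age and sex of the mice are stated in the labels. A set of 10 untreated mice, 5 transgenic and 5 wild-type, served as a baseline. The labels do not describe cages or batches, so p-values measure the spread between these mice as sampled.

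DSS strips and injures the colon epithelium, and neutrophils and monocytes enter the damaged wall. Calprotectin, the S100a8 and S100a9 dimer, is among the most abundant proteins of the neutrophil cytosol, binds zinc and manganese and is measured in stool as a marker of bowel inflammation. Neutrophils are called in by chemokines that bind Cxcr2, carry granules of proteases and iron-binding proteins, and can release interleukin-1, which acts on fibroblasts and epithelium.

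The classes were spread unevenly over the groups. The high class held 5 of 5 recipients of transgenic flora (calprotectin 9.18, 9.87, 10.3, 10.4 and 11.6), 3 of 5 recipients of wild-type flora (10.2, 10.6 and 11.2) and 3 of 5 conventional wild-type mice (8.57, 9.41 and 11.6). It also held 1 conventional transgenic mouse, TG49, at 9.54 and 1 axenic control, AXDSSCT517, at 9.22. Mice are named by the end of their titles, where AX stands for axenic, CT for control, and WT or TG for the genotype or, in axenic mice, the donor of the flora. The low class held 4 conventional transgenic mice (5.78, 5.86, 6.07 and 6.45), 4 axenic controls (5.93, 6.18, 6.22 and 7.12), 2 conventional wild-type mice (7.14 and 7.41) and 2 recipients of wild-type flora (7.17 and 8.31). Untreated mice read 5.68 to 6.11. Thus 4 of 25 DSS mice lay within the untreated range, and the low class ran from that range up to 8.31. The mice nearest the threshold were the wild-type mouse WT52 at 8.57, just inside the high class, and AXDSSWT098 at 8.31, just outside it. In AXDSSCT517 the subunits diverged, with S100a8 at 8.31 and S100a9 at 10.13.

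**Figure D1:**
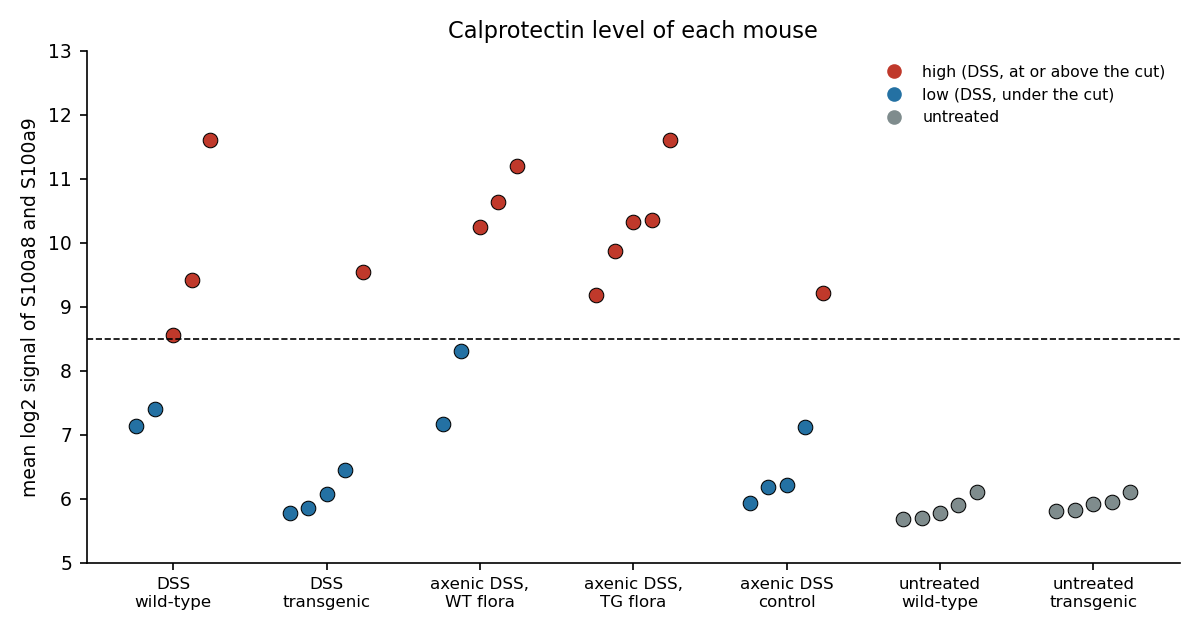
Calprotectin level (mean log2 signal of S100a8 and S100a9, vertical axis) of each of 35 mice by group, with high mice in red, low mice in blue, untreated mice in grey and the threshold of 8.5 as a dashed line. All 5 recipients of transgenic flora lie above the line, and 4 of 5 conventional transgenic mice and 4 of 5 axenic controls lie under 7.2, beside untreated mice at 5.68 to 6.11.

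All 35 arrays gave similar central values, with medians of 6.65 to 6.95 (log2). Muc2, the main colon mucin, read at least 12.4 in every high mouse and at least 12.8 in every low mouse. The spread of log2 signal over the probe sets of an array (its SD) was 1.64 to 2.03 in the high class, 1.72 to 1.99 in the low class and 1.73 to 1.97 in untreated mice. The 4 DSS arrays of lowest spread were those of AXDSSCT517, AXDSSTG922 and WT55 in the high class and of AXDSSCT465 in the low class. Xist, a transcript of female cells, was high in 1 of 13 high mice, 3 of 12 low mice and 4 of 10 untreated mice.

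High against low mice were compared with group as a covariate, in limma across 19906 genes with Benjamini-Hochberg adjustment, and genes at adjusted p under 0.05 were called. Among the genes that rose were 19 of 35 neutrophil genes, 15 of 36 cytokine genes, 9 of 32 chemokine genes and 8 of 19 genes of activated fibroblasts. So did 10 of 23 genes of the metalloprotease and inhibitor list, which also holds Plaur, Adam8 and Adamts1. The lists share called genes, so these counts are not separate. Mmp8 and Mmp9 are in the neutrophil and metalloprotease lists, Il1r2 in the neutrophil and cytokine lists. Il11, Ptgs2 and Inhba are in the cytokine and fibroblast lists. In all 343 genes were higher in high mice (1.72% of those tested) and 5 were lower (0.0251%), and 118 rose and 3 fell at least 2-fold. At unadjusted p under 0.05, 1650 were higher and 400 lower. Differences are high minus low on the log2 scale. The median difference over all genes was 0.001 (log2). Among the called genes, 337 of 343 that rose and 5 of 5 that fell had the same sign within each of the 4 groups that hold both classes, against 3446 of all 19906 genes. The called genes were selected on the difference over these same 4 groups, so a shared sign is largely built in and is no replication. The recipients of transgenic flora, all high, add nothing to the difference, which rests on 20 mice.

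How many genes were called depended on single mice. Without TG49, the only high mouse of its group, 68 genes were called, all of them higher (0.342%), and without the low axenic control AXDSSCT229, 592 were. Leaving out TG49 leaves only low mice in its group, so all conventional transgenic mice then add nothing to the difference. It was 179 without WT56, 120 without AXDSSWT880, 212 without AXDSSWT793 and 208 without AXDSSWT098. Without the 4 arrays of lowest spread 3765 were called, 2148 higher (10.8% of genes tested) and 1617 lower (8.12%), so 57.1% of the calls were higher. The 4 arrays include AXDSSCT517, the only high axenic control, so without them the axenic controls as a group add nothing to the difference. With array weights, which are estimated from the residuals of each array, 7553 were called, with 53.4% higher. With all arrays at equal weight the higher share was 98.6%, so the balance of rises and falls differed between these fits. Of the 4 arrays, WT55, AXDSSTG922 and AXDSSCT517 had weights of 0.12, 0.15 and 0.21 and AXDSSCT465 1.68, beside 4.97 for AXDSSWT880. Which arrays moved the balance was not tested. The 348 genes called with all mice kept their sign without TG49 (348 of 348), and 342 were also called without the 4 arrays. Both fits reuse mice that chose the genes, so this is a description and no independent check.

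**Figure D2:**
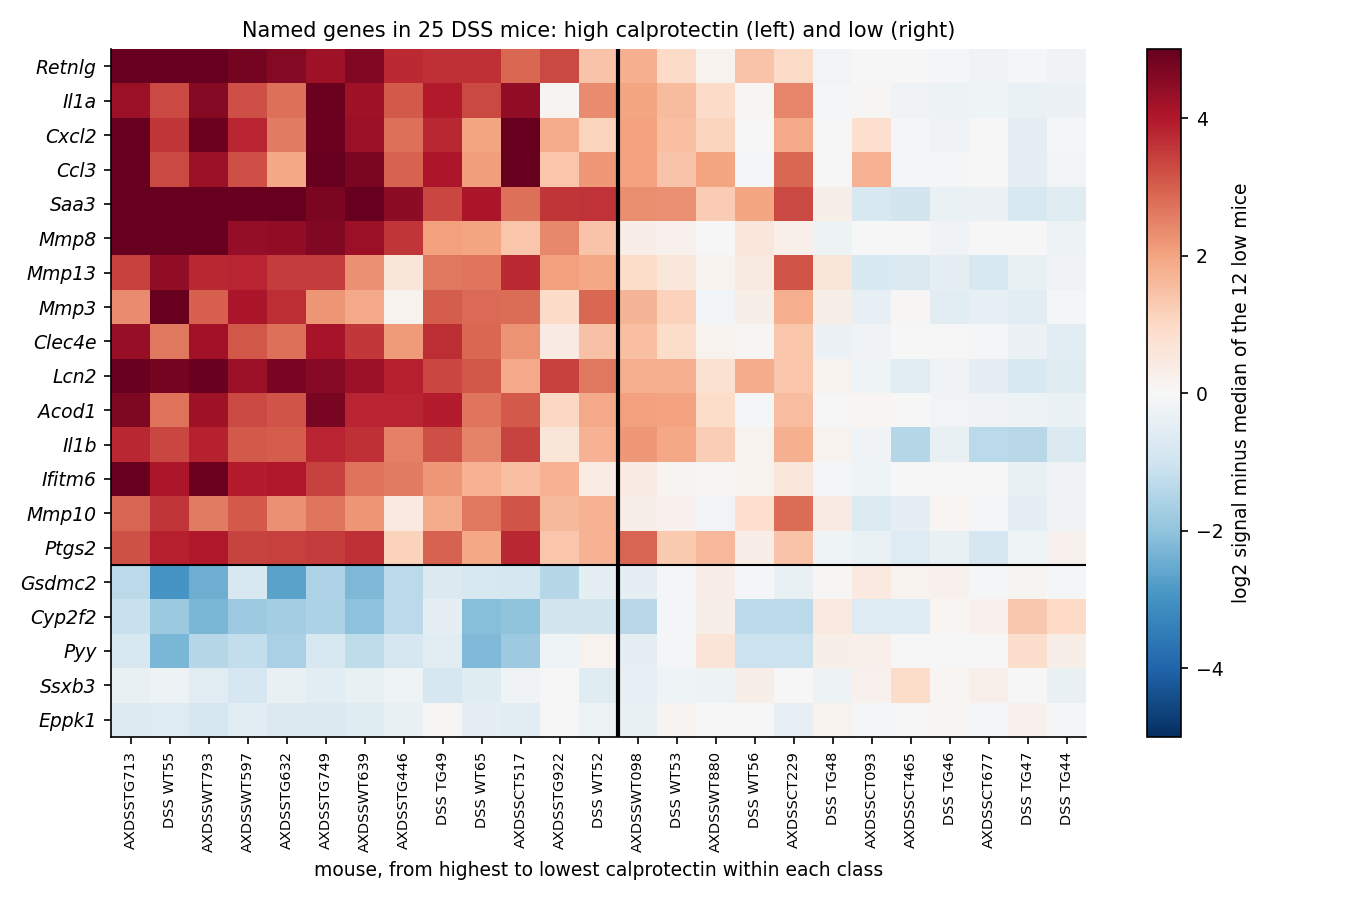
Log2 signal minus the median of the 12 low mice (colour) for the 15 largest rises (upper rows) and the 5 falls (lower rows) in 25 DSS mice, each class ordered by calprotectin, high on the left, and differences beyond 5 in the darkest colour. Red fills most of the high side in the upper rows, whereas AXDSSTG922, AXDSSTG446 and WT52 on the high side are paler in several rows and AXDSSWT098 and AXDSSCT229 on the low side are tinted red in many.

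The largest of the 15 named rises was the neutrophil gene Retnlg, followed by Il1a, Cxcl2, Ccl3 and Saa3, and then by Mmp8. Calprotectin is itself abundant in neutrophils, so a rise of other neutrophil genes lies close to what the split selects. Retnlg, a resistin-like protein made by mouse neutrophils and their precursors, read 7.09 to 11.37 in high mice (median 9.90), 5.47 to 7.42 in low mice (median 5.66) and 5.21 to 5.68 in untreated mice (median 5.41). Only WT52 of the high class lay under any low mouse. The difference was 3.14 (SE 0.42, 8.84-fold, 95% interval 2.28 to 4.01, adjusted p = 0.00142). Mmp8, neutrophil collagenase, read 6.47 to 11.46 in high mice (median 9.36), 4.83 to 5.66 in low mice (median 5.08) and 4.83 to 5.27 in untreated mice. High and low mice did not overlap, and low mice stayed near untreated ones. Mmp8 differed by 2.84 (SE 0.52, adjusted p = 0.00726). Lcn2, a protein of neutrophils and epithelium that traps bacterial siderophores, read 9.89 to 12.94 in high mice (median 12.27) and 7.25 to 9.85 in low mice (median 8.01). These classes too did not overlap, with a gap of under 0.1 between AXDSSCT517 and WT56, and the untreated median was 6.93. Lcn2 differed by 2.56 (SE 0.35, adjusted p = 0.00142).

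Of 35 neutrophil genes measured 19 rose and 0 fell, with a median difference of 1.27. Cxcr2, the receptor for neutrophil-attracting chemokines, rose by 2.25 (SE 0.42, adjusted p = 0.00741), and Csf3r, the receptor for G-CSF, by 1.35 (adjusted p = 0.00676). Clec4e and Clec4d, C-type lectins of myeloid cells, rose by 2.58 and 1.64 (adjusted p = 0.00612 and 0.00374). Itgam, the CD11b integrin, rose by 1.49, the triggering receptor Trem1 by 1.84 and the gelatinase Mmp9 by 1.65 (adjusted p from 0.00612 to 0.0163). Acod1, which makes itaconate in activated myeloid cells, rose by 2.49 (adjusted p = 0.00697). Outside this list, Ifitm6, an interferon-inducible membrane gene, rose by 2.41 (adjusted p = 0.00813). Without TG49, 7 of the 35 were called, and without the 4 arrays of lowest spread 23 were.

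Of the genes listed as defining for neutrophils, some passed and others did not. Of 9 measured, Retnlg, Csf3r, Mmp8 and Cxcr2 rose. Ngp, a protein of neutrophil granules, differed by 1.71 (adjusted p = 0.136), reading 5.26 to 10.28 in high mice and 4.90 to 5.17 in low mice. Ltf, lactoferrin, differed by 0.62 (adjusted p = 0.348). Ly6g, the usual surface marker of mouse neutrophils, read a median of 11.92 in high mice, 11.65 in low mice and 11.40 in untreated mice. Its signal was thus close to this level without DSS too, and whether its probe set reads Ly6g alone was not tested. Camp and Stfa3 differed by 0.04 and -0.01. The mean level over the 9 genes was 6.91 to 9.19 in high mice, 6.05 to 6.51 in low mice and 5.82 to 6.20 in untreated mice. Mpo and Elane, granule enzymes of immature neutrophils, differed by -0.03 and -0.05. Ngp, Ltf, Ly6g, Camp, Stfa3, Mpo and Elane were picked out after their values were seen. In bulk tissue, more neutrophils and more RNA of a gene per neutrophil cannot be told apart.

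The promoters of the 4 largest rises, Retnlg, Il1a, Cxcl2 and Ccl3, are shown as the 250 bases before each start in RefSeq (GRCm38.p6), 5′ to 3′ on the strand of the gene, to set the shared rise beside the sequence. Capitals mark matches, on either strand, to 3 motifs: GGANTTTCC, a core of NF-κB sites, TTGCNNAA, the core of C/EBP sites, and TGANTCA, the AP-1 site. They lie at chr16:48872358-48872607 (plus strand), chr2:129309973-129310222 (minus), chr5:90903649-90903898 (plus) and chr11:83649379-83649628 (minus).
Retnlg: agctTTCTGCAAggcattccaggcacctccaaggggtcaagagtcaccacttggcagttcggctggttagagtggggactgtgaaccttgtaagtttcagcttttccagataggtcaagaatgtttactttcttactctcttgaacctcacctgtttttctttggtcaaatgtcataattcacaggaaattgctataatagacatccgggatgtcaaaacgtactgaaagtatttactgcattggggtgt
Il1a: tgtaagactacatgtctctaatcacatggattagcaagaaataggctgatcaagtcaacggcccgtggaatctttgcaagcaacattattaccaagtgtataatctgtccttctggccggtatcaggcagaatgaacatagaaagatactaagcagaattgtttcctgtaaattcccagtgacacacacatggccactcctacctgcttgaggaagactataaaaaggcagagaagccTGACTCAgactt
Cxcl2: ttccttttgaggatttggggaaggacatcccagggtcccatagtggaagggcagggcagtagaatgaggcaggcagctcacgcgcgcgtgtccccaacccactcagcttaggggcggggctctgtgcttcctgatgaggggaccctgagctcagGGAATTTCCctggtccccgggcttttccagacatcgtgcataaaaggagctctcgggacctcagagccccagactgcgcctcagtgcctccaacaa
Ccl3: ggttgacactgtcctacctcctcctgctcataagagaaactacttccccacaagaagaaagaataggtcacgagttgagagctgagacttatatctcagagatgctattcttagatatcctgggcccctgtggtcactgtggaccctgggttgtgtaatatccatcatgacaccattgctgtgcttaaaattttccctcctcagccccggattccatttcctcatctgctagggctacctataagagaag
Retnlg holds a C/EBP core that begins 246 bases before the start, and Il1a an AP-1 site that begins 12 bases before it. Cxcl2 holds an NF-κB core that begins 96 bases before it, and Ccl3 holds no match to the 3 motifs in this window. Over the 251 of 343 genes higher in high mice that had a promoter sequence, 4.38% held GGANTTTCC, against 1.08% of 15586 promoters in all, and a looser NF-κB pattern with more free bases was in 7.17% against 4.07%. TTGCNNAA was in 11.6% against 8.65%, and TGANTCA in 7.97% against 6.11%. A match is a description of letters and shows no binding.

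The genes of both interleukin-1 chains, Il1a and Il1b, rose. Il1a read 5.40 to 10.18 in high mice (median 8.57) and 4.91 to 7.69 in low mice (median 5.25), beside an untreated median of 4.85. The classes overlapped, with 4 low mice above the lowest high mouse, AXDSSTG922. Il1a differed by 3.04 (SE 0.53, adjusted p = 0.00612). Il1b read 8.45 to 11.68 in high mice (median 11.05), 6.40 to 10.01 in low mice (median 7.84) and a median of 6.02 in untreated mice, a difference of 2.48 (SE 0.50, adjusted p = 0.0113). All 12 low mice had Il1b above the untreated median.

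Of 36 cytokine genes 15 rose and 0 fell, with a median difference of 0.36. Ptgs2, the inducible cyclooxygenase, rose by 2.33, Il6 by 2.08, Il11, a cytokine of stromal cells, by 1.60, and Inhba, an activin subunit, by 1.40 (adjusted p = 0.00741, 0.0272, 0.00676 and 0.008). Tnf rose by 0.88, the Il6-family cytokine Osm by 0.94 and Csf3, the gene of G-CSF, by 0.62 (adjusted p = 0.0105, 0.0225 and 0.00741). The antagonists Il1rn and Il1r2, the receptor decoy, were among the 15. Il1rn differed by 1.02 (adjusted p = 0.0219), with a median of 9.35 in high mice, 8.58 in low mice and 9.39 in untreated mice. High mice therefore read about as untreated mice for this gene, and low mice read less. Without TG49, 3 of the 36 were called.

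Chemokines for neutrophils and monocytes were higher. Cxcl2, a ligand of Cxcr2, read 6.69 to 10.78 in high mice (median 9.33), 5.13 to 7.58 in low mice (median 5.56) and a median of 5.25 in untreated mice. It was highest of all in AXDSSCT517, the high axenic control, although that mouse had the third lowest calprotectin of its class. Cxcl2 differed by 2.98 (SE 0.50, adjusted p = 0.00612). Ccl3, which attracts monocytes and is made by activated myeloid cells, read 8.28 to 12.60 in high mice and 6.43 to 9.77 in low mice, a difference of 2.94 (SE 0.57, adjusted p = 0.00813). Of 32 chemokine genes 9 rose and 0 fell, among them Cxcl5 (1.95, adjusted p = 0.0107), Ccl2 (1.77, adjusted p = 0.019), Cxcl1 (0.74, adjusted p = 0.0291) and the T-cell chemokine Cxcl9 (2.17, adjusted p = 0.0479). Cxcl3 differed by 0.76 (adjusted p = 0.069) and Ccl4 by 0.44 (adjusted p = 0.162). Without TG49, 1 of the 32 was called, and without the 4 arrays of lowest spread 13 were. In the TNF and NF-κB list 8 of 22 rose, led by Tnfaip2 (1.53, SE 0.20, adjusted p = 0.00142), Icam1 (0.85, adjusted p = 0.00624) and the inflammasome sensor Nlrp3 (0.86, adjusted p = 0.00675), and 2 of 22 were called without TG49.

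Of 23 genes in the metalloprotease and inhibitor list 10 rose and 0 fell, with a median difference of 0.92. Mmp13, collagenase-3, read 7.56 to 11.42 in high mice (median 10.41) and 6.19 to 10.11 in low mice (median 6.98), against an untreated median of 6.06. The top low value belonged to the axenic control AXDSSCT229, and the next low mouse read 7.89. Mmp13 differed by 2.83 (SE 0.52, adjusted p = 0.00741). Mmp3 and Mmp10, stromelysins of stroma and wound edge, rose by 2.66 and 2.33 (adjusted p = 0.00624 each), and Timp1, an inhibitor of these enzymes, by 2.02 (adjusted p = 0.0157). Without TG49, 5 of 23 were called.

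Some stromal and vascular genes were also called higher. In the collagen and matrix list 9 of 28 rose (median difference 0.53), including Lox, which cross-links collagen (2.15, adjusted p = 0.00741), the basement membrane chains Col4a2 and Col4a1 (0.55 and 0.54, adjusted p = 0.00741 and 0.0211) and Col3a1 (0.92, adjusted p = 0.0314). Of 19 genes of activated fibroblasts 8 rose, with Pdpn at 0.95 (adjusted p = 0.012) and the oncostatin receptor Osmr at 1.04 (adjusted p = 0.0114). Of 19 endothelial genes 5 rose, among them the leukocyte adhesion molecule Vcam1 (0.96, adjusted p = 0.00878) and the endothelial cadherin Cdh5 (1.00, adjusted p = 0.0239). Without TG49, 3 of 28, 1 of 19 and 1 of 19 were called in these lists. Of 22 monocyte and macrophage genes 7 rose, with the scavenger receptor Msr1 at 0.91 (adjusted p = 0.00374) and the F4/80 antigen Adgre1 at 0.71 (adjusted p = 0.0219), and 2 were called without TG49 and 15 without the 4 arrays of lowest spread.

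Several acute phase genes rose. Saa3, a serum amyloid made locally in gut, read 10.16 to 12.70 in high mice (median 12.13) and 6.49 to 10.73 in low mice (median 7.41), beside an untreated median of 6.42, and differed by 2.86 (SE 0.45, adjusted p = 0.00441). Of 23 acute phase genes 7 rose, including haptoglobin Hp (1.80, adjusted p = 0.00796), ceruloplasmin Cp (1.57, adjusted p = 0.00676) and Serpina3n (1.5, adjusted p = 0.00741), and 3 were called without TG49. Saa1 differed by -0.60 (SE 0.55, adjusted p = 0.807). Of 26 antimicrobial genes only Nos2, the inducible nitric oxide synthase, passed (1.34, adjusted p = 0.0353), and 0 were called without TG49.

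The lectins and the resistin-like gene of the epithelium, high in many DSS mice, were not called. Reg3g, a lectin that kills Gram-positive bacteria, read 5.66 to 12.75 in high mice (median 11.30) and 5.25 to 12.58 in low mice (median 6.14), with a difference of 1.71 (SE 0.83, 95% interval -0.02 to 3.44, adjusted p = 0.493). Reg3b differed by 1.79 (SE 0.78, adjusted p = 0.387). Retnlb, a goblet-cell protein, read 6.17 to 12.63 in high mice (median 11.82) and 5.14 to 12.77 in low mice (median 9.27), against an untreated median of 4.95, and differed by 0.81 (adjusted p = 0.54). The high axenic control AXDSSCT517 had Retnlb at 6.17, and the 4 low axenic controls read 5.14 to 5.70. In conventional wild-type mice Retnlb was 12.15 or more in the high and the low mice. Plet1 and Clca4b, genes of regenerating epithelium, had medians of 12.73 and 12.51 in high mice, 12.06 and 10.83 in low mice, and 7.41 and 6.47 in untreated mice, and differed by 0.39 and 0.81 (adjusted p = 0.714 and 0.58). Of 25 wound epithelium genes 2 rose, the growth factor Ereg (1.99, adjusted p = 0.00741) and the alarmin Il33 (1.28, adjusted p = 0.0208). The intervals on Reg3g and Reg3b are wide, so missing the threshold does not show that the classes are alike.

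**Figure D3:**
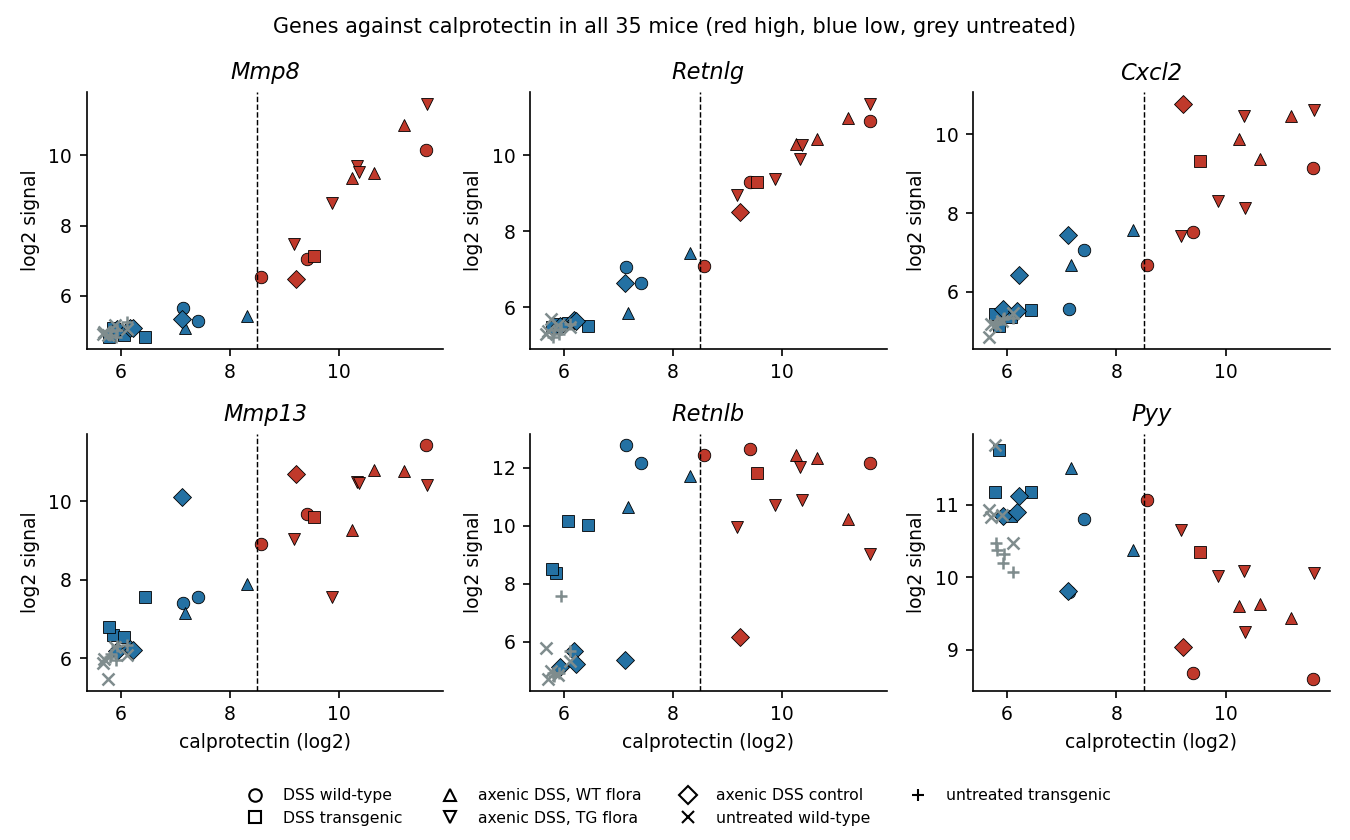
Log2 signal (vertical axes) against calprotectin (mean log2 of S100a8 and S100a9, horizontal axes) for 6 genes in 35 mice, with the threshold as a dashed line, colour for class and marker shape for group. Mmp8 is at 5.66 or less in all low and untreated mice and climbs above the threshold to 11.46, whereas Retnlb is above 8 in all low mice outside the axenic controls.

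The 5 genes that fell included a gasdermin of gut epithelium and a hormone of enteroendocrine cells. Gsdmc2, the gasdermin, read 7.66 to 10.14 in high mice (median 9.28), 10.12 to 11.11 in low mice (median 10.63) and a median of 11.64 in untreated mice. The classes overlapped at a single point, with the high mouse WT52 at 10.14 and the low mouse AXDSSWT098 at 10.12. Gsdmc2 fell by 1.27 (SE 0.30, adjusted p = 0.0269). Cyp2f2, a cytochrome P450, had medians of 6.40 in high mice, 8.16 in low mice and 9.85 in untreated mice and fell by 1.26 (SE 0.26, adjusted p = 0.012). Pyy, the hormone peptide YY of enteroendocrine cells, had medians of 9.63 in high mice, 10.88 in low mice and 10.47 in untreated mice and fell by 1.17 (SE 0.30, adjusted p = 0.0455). Eppk1, an epithelial plakin, fell by 0.41 (adjusted p = 0.0439) and Ssxb3 by 0.49 (adjusted p = 0.0414). None of these 5 genes was called without TG49 or without AXDSSWT880, and Pyy had adjusted p = 0.0581 without the 4 arrays of lowest spread. Pyy and Eppk1 lay close to the threshold and missed it in most fits that left out a single mouse. Pyy had adjusted p = 0.0776 without WT65 and 0.0507 after repeated quantile normalization. Among the single-mouse fits Ssxb3 missed it in many and Gsdmc2 in several. Cyp2f2 missed it only without TG49 or AXDSSWT880.

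Wider epithelial lists had negative medians and few calls. The 44 absorptive genes had a median difference of -0.33, with 1 called lower (Cyp2f2) and 8 above 0, and the 24 goblet genes -0.30, with 0 called in limma, 10 lower at unadjusted p under 0.05 and 2 above 0. Mptx1, a pentraxin of colon epithelium, had medians of 5.62 in high mice, 8.71 in low mice and 12.25 in untreated mice and differed by -2.0 (SE 0.54, adjusted p = 0.0615). The water channel Aqp8 differed by -1.23, the chloride exchanger Slc26a3 by -0.88 and the carbonic anhydrase Car4 by -0.79 (adjusted p = 0.277, 0.529 and 0.206). The stem cell gene Lgr5 differed by -0.10 and Muc2 by -0.22 (adjusted p = 0.875 and 0.517). Without the 4 arrays of lowest spread the absorptive median was -0.09 and the goblet median -0.06. With the within-array spread as a covariate, 6 genes of each list were called lower, against 298 of 19906 genes in all (1.5%). The part of array spread in these shifts was not tested further.

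Lymphocyte, mast cell and tissue lists held few called genes. Over all 19906 genes 1.72% were called higher, and 1650 genes were higher and 400 lower at unadjusted p under 0.05. Without the 4 arrays of lowest spread 10.8% of all genes were called higher and 8.12% lower. Of 20 T and NK genes 1 rose, granzyme Gzmb (0.77, adjusted p = 0.0409), and Ifng differed by 0.59 (adjusted p = 0.0976). Of 17 B and plasma cell genes, 16 mast cell and eosinophil genes and 8 MHC class II genes 0 were called, and 1, 1 and 0 of them were higher at unadjusted p under 0.05. Interferon-stimulated genes rose in 4 of 27, with Iigp1 at 1.57 and Gbp5 at 1.43 (adjusted p = 0.0267 and 0.0388), and 0 were called without TG49 and 9 without the 4 arrays. Cell cycle genes had 1 of 27 called, E2f1 at 0.20 (adjusted p = 0.0497), with 27 of 27 above 0, and 10 were called without the 4 arrays. Smooth muscle genes had a median of -0.25 with 0 of 19 called and 6 lower at unadjusted p under 0.05, and their mean level was 8.96 to 10.48 in high mice, 9.93 to 10.41 in low mice and 9.87 to 10.48 in untreated mice. Squamous genes, which mark anal skin, were 0 of 27, with mean levels of 6.19 to 6.71 in high mice, 6.30 to 6.60 in low mice and 6.28 to 6.64 in untreated mice, and 7 were called lower without the 4 arrays. Pancreatic genes had a median of 0.68 with 0 of 12 called, and mean levels of 6.05 to 10.95 in high mice, 6.31 to 10.83 in low mice and 6.46 to 11.27 in untreated mice. Of 16 enteric neuron and glia genes Nefl and Ret rose (0.39 and 0.42, adjusted p = 0.025 and 0.0386). Lists of ER stress, sterol synthesis, respiratory chain, xenobiotic metabolism, tight junction, stem cell, adipocyte, blood, posterior Hox and proximal colon genes had 0 calls in limma. At unadjusted p under 0.05, 7 of 37 xenobiotic genes were lower, and each of the other lists held at most 2 genes. Single genes were called in lists of fatty acid oxidation (Angptl4, 0.70), clock (Nfil3, 0.72) and hypoxia and glycolysis (Pfkfb3, 0.93), with adjusted p from 0.00676 to 0.0249.

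**Figure D4:**
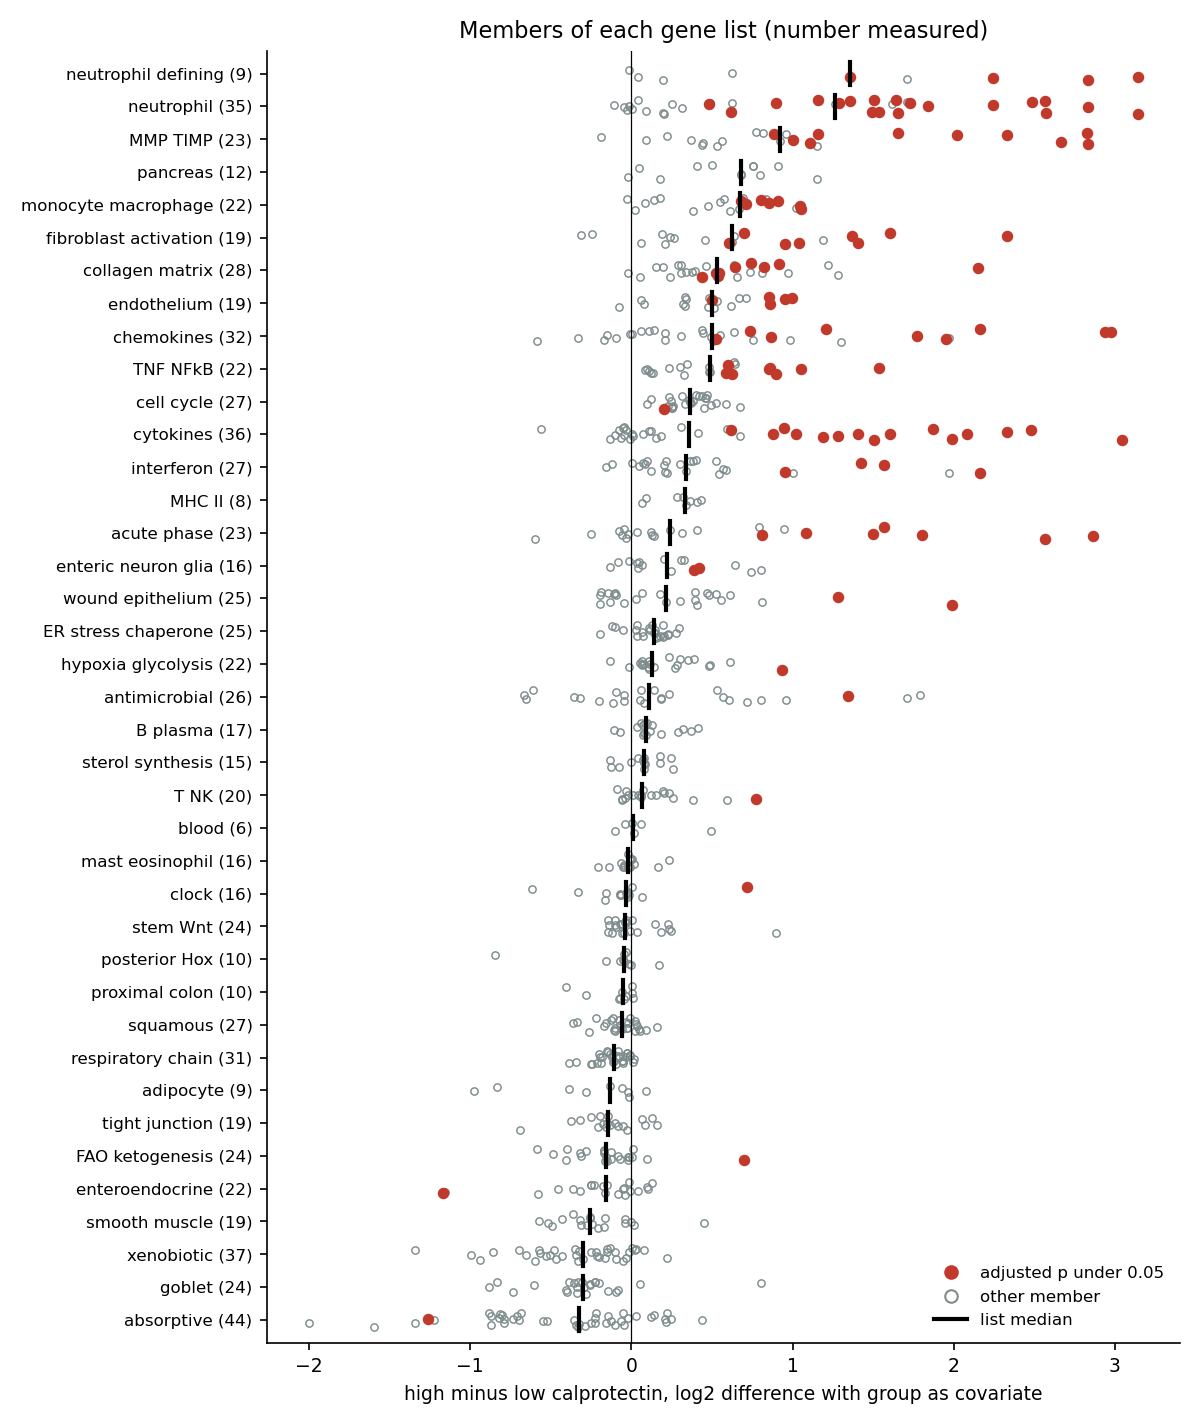
Difference of high minus low calprotectin (log2, horizontal axis, group as covariate) for each measured gene of 39 lists, with called genes filled in red, other genes open and the list median as a black bar. Red points gather on the right in the neutrophil, cytokine, chemokine and metalloprotease lists, and only Cyp2f2 and Pyy are red on the left.

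The same split in conventional and in axenic mice, which share no array, gave the same direction for the genes called. Both sets of mice were split by the same S100a8 and S100a9 measure. Genes that follow calprotectin therefore lean the same way in both, and the counts below are a description, not an independent check of the split. In the 10 conventional mice 97 genes were called (0.487%), all of them higher. Of these, 97 of 97 were higher in the 15 axenic mice too and 77 were higher at unadjusted p under 0.05, against 11130 of 19906 genes higher and 757 (3.8%) higher at that level over all genes. Their median difference was 1.00 in axenic mice and 1.18 in conventional mice, and over all genes it was 0.02 and 0.0003. The 5 recipients of transgenic flora, all high, add nothing to the axenic difference, and AXDSSCT517 is the only high axenic control in it. In the axenic mice alone 0 genes were called at adjusted p under 0.05 in limma, where 757 were higher and 582 lower at unadjusted p under 0.05. Retnlg differed by 3.43 in axenic mice (SE 0.48, adjusted p = 0.0709) and by 2.86 in conventional mice (SE 0.66, adjusted p = 0.126). Il1a differed by 3.09 in axenic mice (SE 0.85, adjusted p = 0.393) and by 2.99 in conventional mice (SE 0.43, adjusted p = 0.0286). Aqp8 differed by -1.94 in axenic mice (SE 0.60) and by -0.52 in conventional mice (SE 0.61), and neither was called. The axenic difference minus the conventional one was called for 0 genes and passed unadjusted p under 0.05 for 437 genes, 227 with the greater value in axenic mice. The smallest p belonged to Zfp780b (-0.48, SE 0.13, adjusted p = 0.772), Top3a, Kctd1, Myrf and Elovl2, all at that adjusted p. With array weights 3010 genes were called for this difference.

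**Figure D5:**
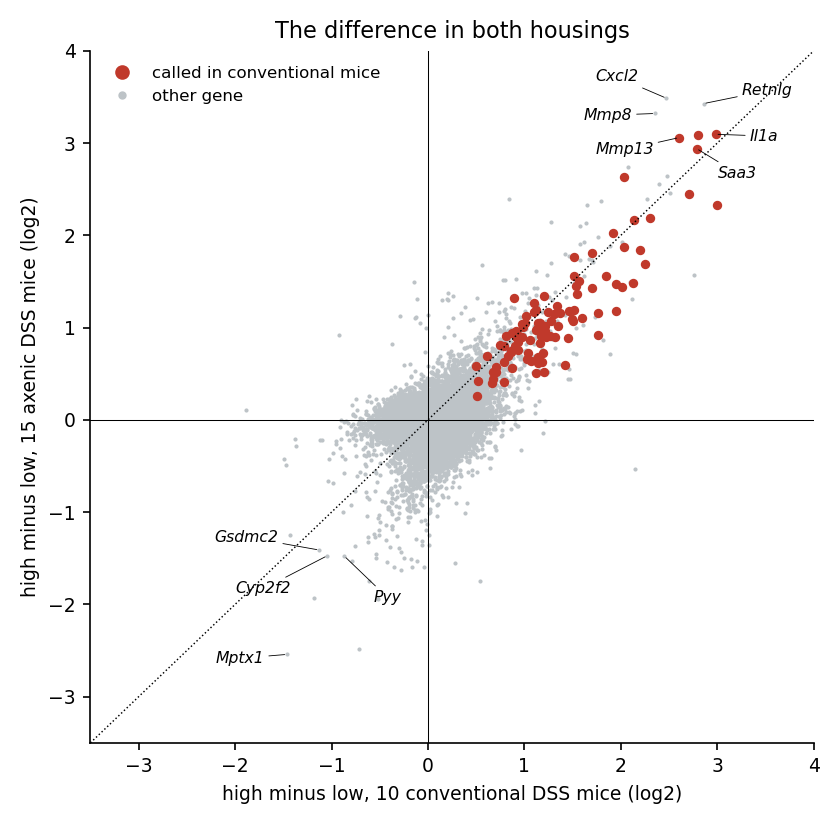
High minus low difference (log2) in the 15 axenic DSS mice (vertical axis) against that in the 10 conventional DSS mice (horizontal axis) for 19906 genes, with the 97 genes called in conventional mice in red and a dotted line of equal values. All red points lie above 0 on the vertical axis. Retnlg, Cxcl2 and Mmp8 are higher in axenic mice (3.43, 3.49 and 3.32) than on the horizontal axis (2.86, 2.47 and 2.35). The recipients of transgenic flora, all high, add nothing to the axenic difference.

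Neither class was uniform. Slopes on calprotectin within a class, with group as a covariate, use the measure that set the classes, so they are given as a description with no test. Mmp8 had a slope of 1.41 log2 per unit of calprotectin in the 13 high mice (SE 0.10) and 0.17 in the 12 low mice (SE 0.12). Retnlg had 1.08 in high mice and 0.94 in low mice, and Lcn2 0.69 in high mice and 1.32 in low mice. Of the 343 genes higher in high mice, 321 had a positive slope within the high mice and 334 within the low mice, against 9392 and 8693 of all 19906 genes. These 343 genes were chosen on the same mice by the same measure, so the counts lend the calls no support.

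The 10 untreated mice were not used by the rule, but their calprotectin spanned only 5.68 to 6.11. Against it, with genotype as a covariate, 8789 genes (44.2%) were called, 4751 of them positive and the others negative. The smallest p belonged to Il6st, a receptor chain of the Il6 family, at -2.80 (SE 0.25, adjusted p = 0.00186), Pde5a, Zfp809, Tmem47 and Taf9b, all with negative slopes. The untreated mice of highest calprotectin, TG31 and WT9 at 6.11 each, had the lowest within-array spread, 1.73 and 1.76, and the mouse of lowest calprotectin, WT11 at 5.68, had the highest, 1.97. With that spread as a covariate 0 genes were called in limma, and 1223 passed unadjusted p under 0.05. Without untreated WT9 the count was 2375, without WT11 5516 and without TG31 4032. Of the 15 largest rises with DSS, Mmp8 had a slope of 0.60 (adjusted p = 0.109), Retnlg 0.49 (adjusted p = 0.212) and Lcn2 -0.13 (adjusted p = 0.925) in untreated mice.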

How the data were processed

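Labelled cDNA from 200 ng of colon RNA per mouse was measured on 35 Mouse Gene 1.0 ST arrays (Affymetrix). The deposited values are log2 signal made by the authors with RMA in Affymetrix Expression Console 1.1, per the submitters' processing notes. All columns were used (0 left out). RMA sets all arrays to 1 distribution before summarising probes, so shifts shared by all genes of an array are not measured. Of 28090 probe sets, 21639 had 1 gene symbol, 1539 had several, and 4912 were not listed. Entrez numbers matched 21548 probe sets to a GRCm38.p6 gene table. The probe set of highest mean stood for each of the 990 genes with several, leaving 19908 genes. The number of arrays limits the precision.

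Linear models were fitted in limma 3.58.1 (R 4.3.3), two-sided, with Benjamini-Hochberg adjustment over 19906 genes (S100a8 and S100a9 left out). SE is the standard error of the fitted difference. Tables and figures used Python 3.11.15, numpy 2.4.6, pandas 2.3.3 and matplotlib 3.10.9.

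The members and the 39 lists (805 of 882 genes measured) were chosen with earlier results of these data known. Named genes were the 15 largest rises and falls among called genes with the same sign in every group that holds both classes. Also named were up to 4 genes of smallest p per list and a fixed set of colitis genes. The 5 smallest p of the axenic minus conventional difference and of the untreated slope were named too. Predicted or unnamed genes were skipped. Beyond this rule Ccl2, Il1rn, Col3a1 and Pdpn were picked after their values were seen.

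Alternatives were other thresholds, a continuous level, no group covariate, array weights, a trended robust variance and repeated quantile normalization. Others were covariates for array spread and 3 lists, mean probe sets and a filter on dim genes. Fits were also made in conventional or axenic mice alone and without each mouse.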

Additional observations from a re-analysis of the deposited data

Results flagged for a closer look

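The calprotectin level of the conventional transgenic mouse TG49, 9.54, stood apart from the other 4 DSS-treated transgenic mice, which read 5.78 to 6.45. It is listed because the gap to the nearest mouse takes up most of the range of its group. Calprotectin is the value that set the classes, so this describes the mouse and tests nothing. TG49 is the single high mouse of its group. Its within-array spread was 2.02, against 1.83 to 1.90 in the other 4 mice.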

How the results depend on the processing

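All 348 genes called kept their direction under every alternative in which they were tested, and all 15 of the largest rises were higher throughout. The alternatives refit all or part of the mice that chose these genes, so a kept direction is largely built in. The number called, 348, was 42 with a threshold of 8.0, 914 with calprotectin as a continuous level, 801 without the group covariate, 7553 with array weights, 221 after repeated quantile normalization (79.6% higher), 942 with the within-array spread as a covariate (68.4% higher), 161 with the posterior Hox level, 629 with the smooth muscle level and 544 with the squamous level (76.8% higher). It was 97 in conventional mice and 0 in axenic mice alone. Among alternatives chosen after seeing the data it was 76 in groups with 2 or more mice of each class and 3765 without the 4 arrays of lowest spread. Leaving out each mouse gave 68 to 592. Of the 15 rises 10 were called with a threshold of 8.0, 7 in conventional mice, 0 in axenic mice and 11 without TG49. Of the 5 falls 0 to 5 were called. The axenic minus conventional difference, 0 genes, was 3010 with array weights, whose estimate had not fully converged, and 0 without any single mouse. The untreated slope, 8789 genes, was 0 with the within-array spread as a covariate and 2375 to 9805 without each mouse. The causes were not tested.

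No paired analysis was possible because the mouse numbers are not shared between groups. Signal over background could not be judged, since detection values were not used here. Levels of different genes cannot be set against each other on these probe sets.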
